A study of Mus musculus with 6 samples.

Results

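miR-221 and miR-222 are a pair of microRNAs made from neighbouring hairpins, and they were followed here in CT26 cells, a mouse colorectal cancer line. The members were all mouse probes named miR-221 or miR-222, of either hairpin arm, which gave 4 of the 1126 mouse miRNA probes on the array. A probe counted as measured where its mean background-subtracted intensity reached 50 on at least 3 of the 6 arrays, as 372 mouse probes did. By that rule miR-222-3p, miR-221-3p and miR-221-5p were measured and miR-222-5p was low. The knockdown line carried a short hairpin RNA against TGF-β1 and the control line a control hairpin, each in the pSUPER gfp-neo vector. There is 1 array for each line at each of 24, 48 and 72 h. The labels call the transfection stable and also count the hours from it, so what the times count from is unsettled, and how many clones a line came from is not given in the sources used here. The arrays carry miRNA probes, so Tgfb1 itself was not measured and the knockdown could not be checked.

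A microRNA is cut from a hairpin transcript, and 1 arm usually enters the Argonaute complex while the other is degraded. The loaded strand pairs with mRNAs mainly through its seed, bases 2 to 8 from the 5′ end, and lowers their translation and stability. In miR-221 and miR-222 the 3p arms are the abundant strands, and they repress the cell cycle inhibitors Cdkn1b and Cdkn1c, the receptor tyrosine kinase Kit and the metalloproteinase inhibitor Timp3. The pair is known for its high level in many human carcinomas and in endothelium and vascular smooth muscle.

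The mature strands are shown because the shared seed is what makes the 3p arms 1 family. Sequences are from RefSeq on GRCm38.p6, 5′ to 3′, with the seed in capitals, and the table held 3 of the 4 members.
miR-221-3p: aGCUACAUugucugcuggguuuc
miR-222-3p: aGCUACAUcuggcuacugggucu
miR-221-5p: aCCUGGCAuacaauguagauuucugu
miR-1928: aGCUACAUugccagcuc
The 3p arms of miR-221 and miR-222 share their first 8 bases and hold the same base at 11 of 23 positions counted from the 5′ end. miR-221-5p, the other arm of the miR-221 hairpin, has the unrelated seed CCUGGCA, which no other mouse miRNA in the table carries. miR-1928 is the only other mouse miRNA in the table with the seed GCUACAU, and it shares its first 10 bases with miR-221-3p.

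The hairpins are shown to place the arms, with the mature strands that the table lists in capitals.
Mir221: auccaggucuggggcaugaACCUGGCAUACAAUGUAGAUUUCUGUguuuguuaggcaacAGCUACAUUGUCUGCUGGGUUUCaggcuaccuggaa
Mir222: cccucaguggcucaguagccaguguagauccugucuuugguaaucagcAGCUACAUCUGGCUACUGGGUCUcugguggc
Mir221 lies at chrX:19146294-19146388 and Mir222 at chrX:19146893-19146971, each on the minus strand and 504 bases apart, so Mir222 comes before Mir221 in the direction of transcription. No other RefSeq gene spans either hairpin in this annotation. The nearest annotated neighbours are the lncRNA Gm14636 on one side and the pseudogene Gm5383 on the other.

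Each probe was printed as 4 spots, and every one of the 1126 mouse probes had 2 spots in a block numbered 1 to 18 and 2 in the block 18 numbers higher. Those groups are called the first and the second block set here, and they differed far more than spots of the same block did. Over the 372 tested probes the median gap between the block sets was between 0.185 and 0.322 on the log2 scale, against 0.0545 to 0.137 between spots of the same block. The correlation of the block sets was 0.803 on the knockdown array of 48 h, and 0.771 and 0.782 on the control arrays of 48 and 72 h. On the other arrays it lay between 0.887 and 0.926. The median background of an array was 89 to 181, with the control array of 48 h highest. Arrays correlated with each other at 0.434 to 0.849 over the tested probes. The mean was 0.662 within a line and 0.696 between the lines, so arrays of a line were no more alike. The arrays of the 2 lines at the same time correlated at 0.84, 0.553 and 0.434 at 24, 48 and 72 h. The knockdown array of 24 h was most like the control array of 48 h (0.849), and the knockdown array of 48 h most like the control array of 24 h (0.848).

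miR-222-3p was the most variable member. Its mean background-subtracted intensity was 149, 1744 and 39.3 in the knockdown line at 24, 48 and 72 h, and 596, -16.8 and 3657 in the control line at the same times. In the knockdown line the array of 48 h was the high one, whereas in the control line 48 h was the low one, and the ranges of the lines overlapped. The lowest array of each line was under 50, and 17 of its 24 spots over all arrays reached 50. The 2 highest arrays, control at 72 h and knockdown at 48 h, were also those on which the block sets parted most.

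In the knockdown line at 48 h the 4 spots of miR-222-3p read 3476 and 3002 in the first block set and 267 and 229 in the second. The 2 spots of a block thus nearly matched, while the block sets lay 8.10-fold apart after background correction with an offset of 50. On that array 60 of 372 probes, or 16.1%, had block sets more than 2-fold apart, and 5 of them had a wider gap than miR-222-3p. On the control array of 72 h the spots read 1769 and 2923 in the first and 5186 and 4748 in the second block set, a 2.10-fold gap, where 9.68% of probes passed 2-fold. On the remaining arrays the block sets of miR-222-3p lay 1.13-fold to 1.30-fold apart. Gaps over 2-fold there were found for 6.45% and 8.06% of probes in the knockdown line at 24 and 72 h, and for 3.76% and 12.4% in the control line at 24 and 48 h.

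**Figure D1:**
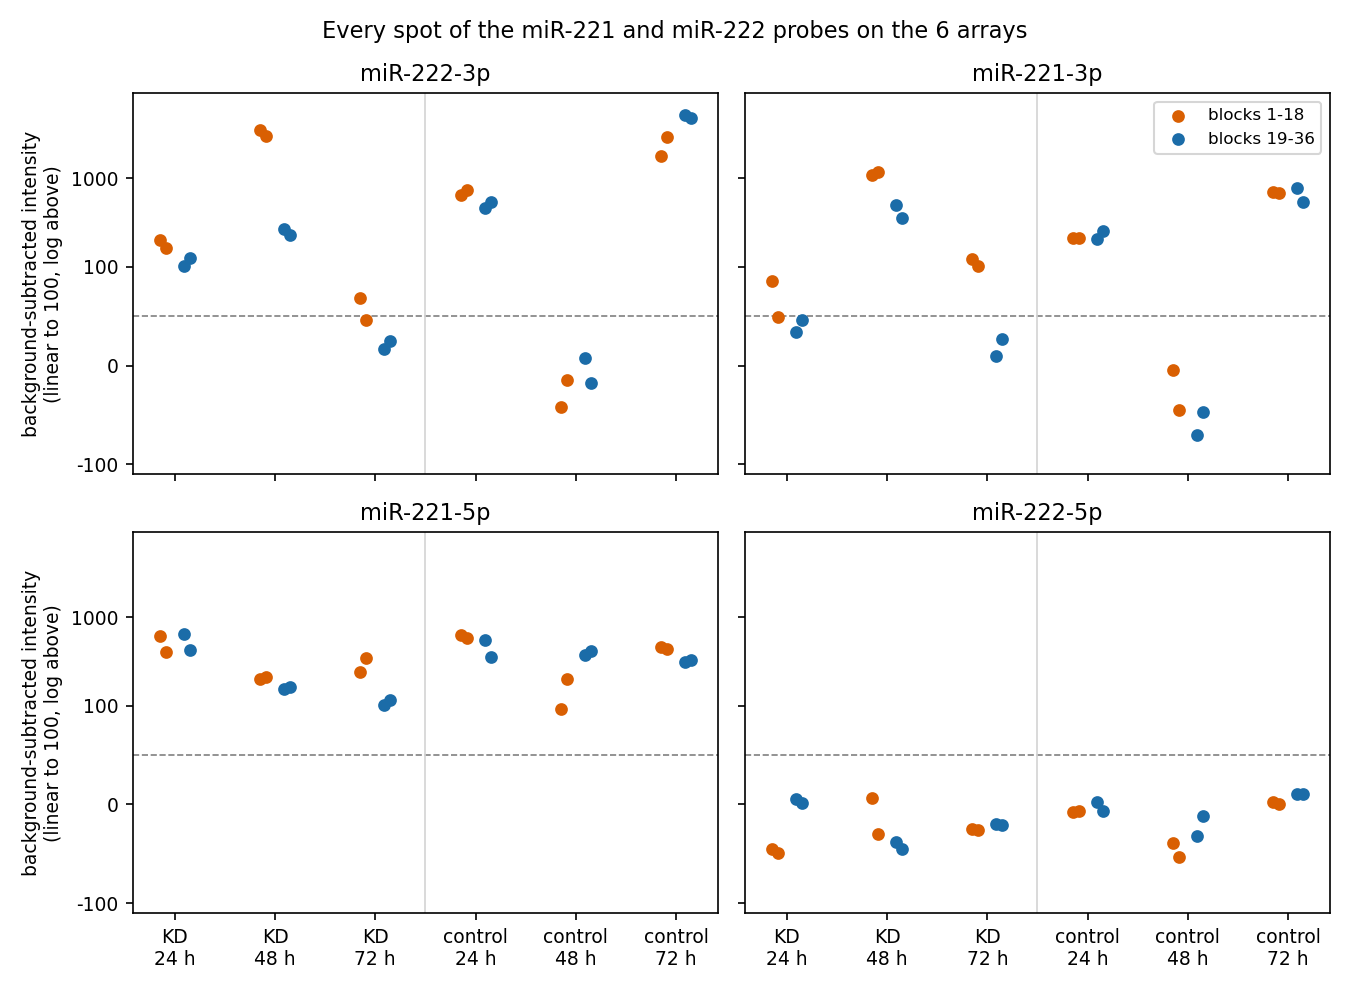
Background-subtracted intensity of each of the 4 spots of every miR-221 and miR-222 probe (vertical axis, linear to 100 and logarithmic above) on the 3 knockdown (KD) arrays and the 3 control arrays; colours mark the block sets and the dashed line the minimum of 50. The miR-222-3p spots of the knockdown array of 48 h fall into a pair at 3476 and 3002 and a pair at 267 and 229, and every miR-222-5p spot lies below the line.

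miR-221-3p, which carries the same seed, was likewise highest at 48 h in the knockdown line and at 72 h in the control line. The knockdown line gave 53.8, 780 and 65.8 at 24, 48 and 72 h, and the control line 221, -41.5 and 677. The control array of 48 h was again under 50 and the ranges of the lines overlapped. Over all arrays 15 of the 24 spots of miR-221-3p reached 50. The 53.8 of the knockdown array of 24 h lies just over the minimum of 50, and the 39.3 of miR-222-3p in the knockdown line at 72 h just under it. Block sets of miR-221-3p were 2.19-fold apart on the knockdown array of 48 h, with the spots at 1099 and 1164 against 499 and 357, and 1.05-fold apart on the control array of 72 h.

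miR-221-5p, the partner strand of miR-221-3p, was measured on all 6 arrays and varied least. Its intensities were 517, 182 and 202 in the knockdown line and 531, 273 and 384 in the control line at 24, 48 and 72 h. The highest array of each line was that of 24 h, and all 24 spots reached 50. No array showed block sets of miR-221-5p more than 1.83-fold apart.

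The probe of miR-222-5p, the partner strand of miR-222-3p, read -21.8, -26.5 and -23 in the knockdown line and -5, -34 and 6 in the control line. None of its 24 spots reached 50, so it gave no level and no difference is drawn from it. The probe of miR-1928 was likewise under 50 on all 6 arrays, between -61.5 and -12, although its target shares the seed of the 3p arms. Whether the probes of miR-221-3p and miR-222-3p also bind each other's strand was not tested, since probe sequences were not used here.

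After quantile normalisation the levels of miR-222-3p on the log2 scale were ordered control 72 h (11.99), knockdown 48 h (10.01), control 24 h (9.64), knockdown 24 h (8.31), knockdown 72 h (7.60) and control 48 h (7.36). The step from the second to the third and the last step were within the combined SD of the spots, and the other 3 steps were beyond it. For miR-221-3p the order of arrays was identical, from 9.93 on the control array of 72 h to 7.18 on that of 48 h. There the first step and the step between the knockdown arrays of 24 and 72 h were within the spot SD. For miR-221-5p the order ran from knockdown 24 h (9.55) to knockdown 72 h (8.33), and only the step between control 72 h (9.26) and control 48 h (8.69) was beyond it.

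**Figure D2:**
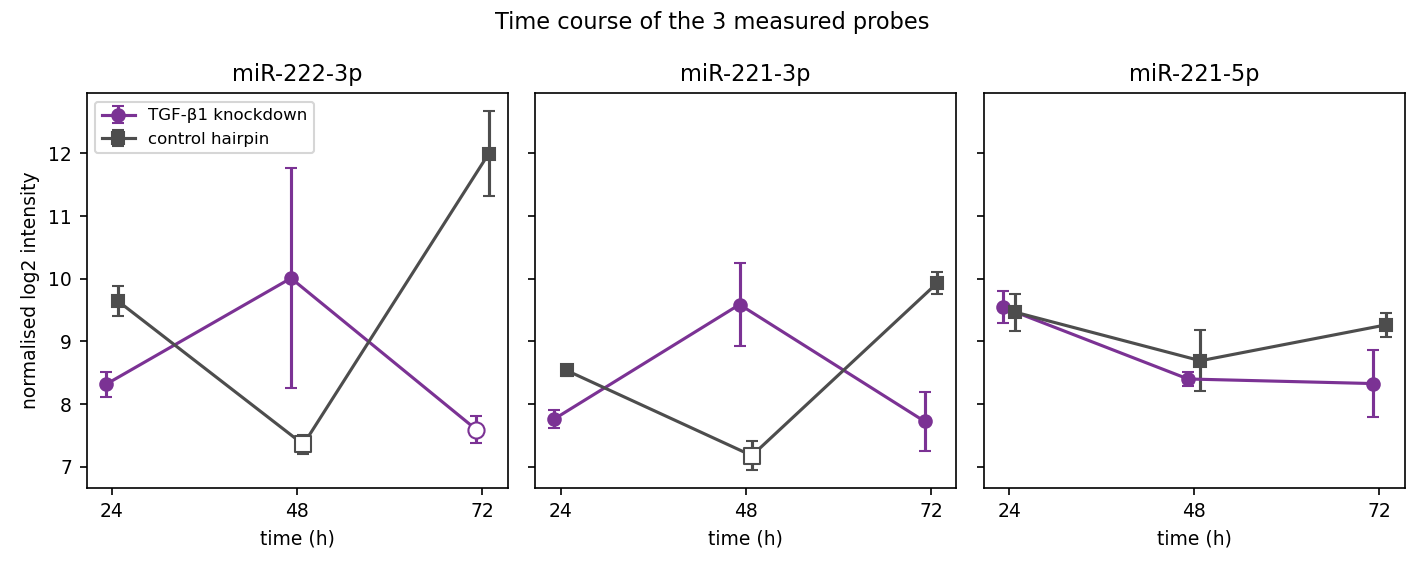
Normalised log2 intensity (vertical axis) of miR-222-3p, miR-221-3p and miR-221-5p against time in hours for the knockdown and the control line, 1 array per point; bars are the SD over the 4 spots and open symbols are arrays with a mean intensity under 50. The lines cross for both 3p arms, with miR-222-3p at 10.01 in the knockdown and 7.36 in the control at 48 h, and at 7.60 in the knockdown and 11.99 in the control at 72 h.

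The comparison of the lines over all times asked whether loss of TGF-β1 goes with a lasting change of these miRNAs. miR-222-3p averaged 8.64 ± 1.24 in the knockdown and 9.66 ± 2.32 in the control on the log2 scale (SD, n = 3 time points each). This is a difference of -1.02, and its 95% interval runs from -3.80 to 1.75 (limma adjusted p = 0.998). The first block set gave -0.44 and the second -1.69 (limma adjusted p = 0.995 and limma adjusted p = 0.957). miR-221-3p averaged 8.36 ± 1.07 in the knockdown and 8.55 ± 1.38 in the control. They differed by -0.19, interval -1.97 to 1.60 (limma adjusted p = 0.998). Under median scaling its difference was 0.23, but median scaling moved the median of all tested probes by 0.35, and relative to that median the difference was -0.08 under quantile and -0.02 under median scaling. miR-221-5p averaged 8.76 ± 0.68 in the knockdown and 9.14 ± 0.40 in the control. They differed by -0.38, interval -1.67 to 0.91 (limma adjusted p = 0.998).

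None of the 3 passed the test, where 0% of the 372 tested probes did and 1 had an unadjusted p under 0.05. An exact two-sided permutation of the line labels gave p = 0.7 for miR-222-3p, p = 0.9 for miR-221-3p and p = 0.4 for miR-221-5p, and 3 arrays against 3 cannot go below 0.1. The groups overlapped for all 3 members, and did not for 7.26% of tested probes. The intervals are wide enough that 2-fold differences in either direction lie inside those of both 3p arms. The replicates of a line are its time points, and nothing says whether they were separate cultures. The limma p-values, with the time point as block, measure how far the difference between the lines varied from time to time. The permutation ignores the time point and measures the spread between the arrays of a line.

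At single time points the lines differed in the 3p arms with opposite signs. At 24 h miR-222-3p was 2.51-fold lower in the knockdown, a log2 difference of -1.33 ± 0.16 (SE over spots), and the block sets gave -1.39 and -1.33. The difference of miR-221-3p was -0.77 ± 0.09 (SE over spots) and that of miR-221-5p 0.08 ± 0.20 (SE over spots). So 1 of the 3 members was 2-fold or more lower at 24 h, where 8.47% of the 413 probes compared were, and 0 were 2-fold or more higher, where 2.66% were. That count depends on how background was handled. Relative to the median of tested probes miR-221-3p differed by -0.65 here, but by -1.67 with background-subtracted intensities floored at 50. For miR-222-3p these values were -1.21 and -1.87. Probes were compared at a time if their intensity was 50 or more in at least 1 line. Each such difference rests on a single pair of arrays and cannot be checked by replicates, and the SE covers spot noise only.

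At 48 h the 3p arms lay on the other side. On the 4-spot levels miR-222-3p was at least 5.37-fold and miR-221-3p at least 4.01-fold higher in the knockdown, bounds because the control probes were not at 50. The bounds allow for the dim control side only and take the knockdown level as read. The measured differences were 2.65 and 2.41 on the log2 scale. For miR-222-3p the first block set gave 3.73 and the second 1.42, which falls below the bound from all 4 spots. For miR-221-3p they gave 2.53 and 2.24. miR-221-5p differed by -0.29. That is 2 of 3 members at 2-fold or more higher, where 21.5% of 441 probes were, and none at 2-fold or more lower, where 13.2% were.

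At 72 h miR-222-3p stood at 7.60 in the knockdown and 11.99 in the control, a difference of -4.40. That is 21.1-fold lower on the levels as read, with the knockdown probe under 50. No probe among the 454 compared had a lower value, and the block sets gave -3.66 and -5.16. Under median scaling the difference of miR-222-3p was -3.32. miR-221-3p was 4.61-fold lower with the mean of both arrays at 50 or more, and its block sets gave -2.10 and -2.32. Its knockdown spots read 124 and 102 in the first block set but 10 and 27 in the second, under 50. Median scaling gave -1.05 for miR-221-3p. miR-221-5p differed by -0.94, but by 0.37 under median scaling, which moved the median of all tested probes at 72 h to 0.60 from -0.39. Relative to those medians miR-221-5p differed by -0.55 under quantile and -0.23 under median scaling. For miR-222-3p these values were -4.01 and -3.92, and for miR-221-3p they were -1.82 and -1.65. Here 2 of 3 members were 2-fold or more lower, where 25.3% of probes were, and none 2-fold or more higher, where 18.5% were.

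**Figure D3:**
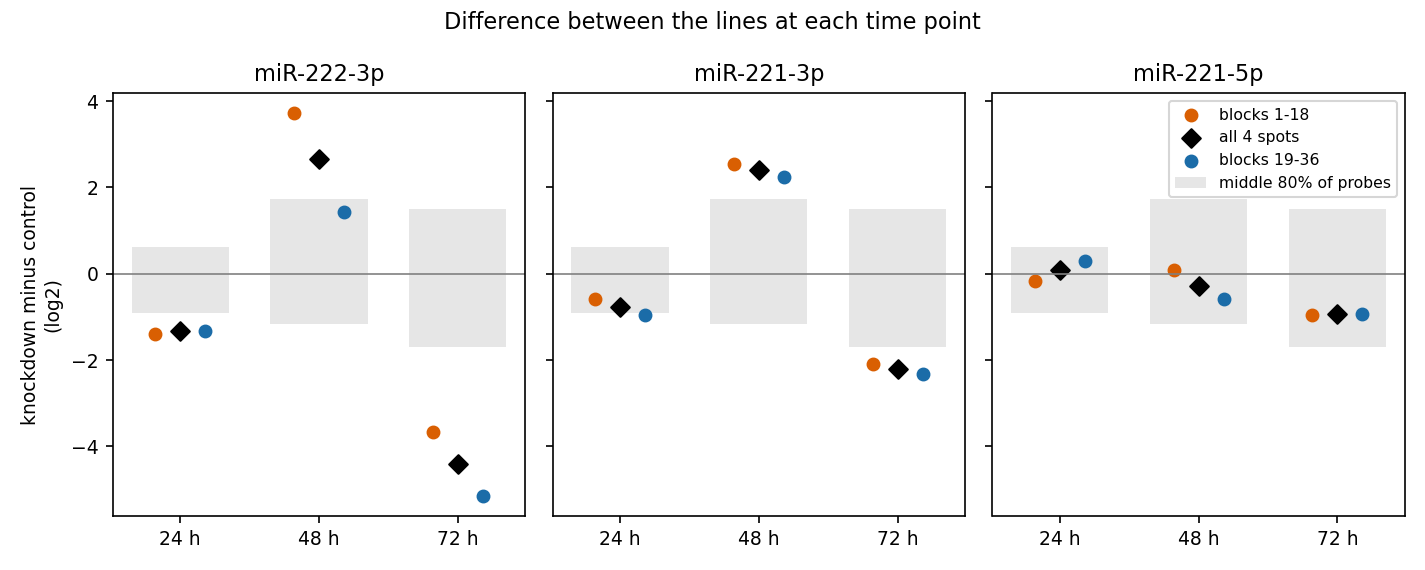
Knockdown minus control on the log2 scale (vertical axis) at each time point for the 3 measured probes, from all 4 spots (diamonds) and from the first and second block set alone (circles); grey bars span the middle 80% of probes compared at that time. Both 3p arms lie below 0 at 24 and 72 h and above 0 at 48 h in either block set, and miR-221-5p stays inside the grey bar at every time.

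Read across the times, miR-222-3p was lower, higher and lower again by 2-fold or more at 24, 48 and 72 h, as were 18 of 372 tested probes (4.84%). With no minimum size the same order of signs held for both 3p arms and for 30.9% of tested probes. The contrast of 48 h with the mean of 24 and 72 h in the line difference was picked once this pattern had been seen. It was 5.51 ± 1.39 (SE) for miR-222-3p (limma adjusted p = 0.0065) and passed for 3.49% of tested probes, all in that direction. It was 3.90 for miR-221-3p (limma adjusted p = 0.102) and 0.14 for miR-221-5p (limma adjusted p = 0.982). The model leaves 1 residual degree of freedom. From the first block set alone miR-222-3p gave 6.26 (limma adjusted p = 0.000194), and from the second 4.67 (limma adjusted p = 0.424), where 0 probes passed and 45 had an unadjusted p under 0.05.

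Without the arrays of 48 h, miR-222-3p was lower in the knockdown by the test, by -2.86 on the log2 scale, interval -4.42 to -1.30 (limma adjusted p = 0.0431), as were 0.806% of tested probes. That call held in the first block set with -2.52 (limma adjusted p = 0.0492) and not in the second, where the difference was -3.24 (limma adjusted p = 0.529). miR-221-3p then differed by -1.49 (limma adjusted p = 0.571) and miR-221-5p by -0.43 (limma adjusted p = 0.982). Leaving out 48 h removes the only time at which the 3p arms were higher in the knockdown. The call for miR-222-3p is therefore no separate support for a lasting difference. It rests on few arrays, and the knockdown level of 72 h was under 50. Without the arrays of 72 h the 3p arms had the opposite sign, 0.66 for miR-222-3p and 0.82 for miR-221-3p (limma adjusted p = 1 each).

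No change with time common to the lines passed the test either. The slope per day was 0.41 ± 0.67 (SE) for miR-222-3p, 0.34 ± 0.48 (SE) for miR-221-3p and -0.36 ± 0.32 (SE) for miR-221-5p (limma adjusted p = 0.999 each). The difference of slopes, knockdown minus control, was -1.53 ± 1.41 (SE) for miR-222-3p, -0.72 ± 1.03 (SE) for miR-221-3p and -0.51 ± 0.64 (SE) for miR-221-5p (limma adjusted p = 0.931 each). In each of these fits 0% of tested probes passed and 9 had an unadjusted p under 0.05.

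The 3p arms were high and low on the same arrays. Their correlation over the 6 arrays was 0.95 (exact permutation p = 0.00139, adjusted over 3 pairs p = 0.00417) and the rank correlation was 1 (exact permutation p = 0.00278, adjusted p = 0.00834). Without the control arrays of 48 and 72 h, the farthest from the median, r was 0.90. Under median scaling it was 0.88 (exact permutation, adjusted p = 0.0999). Such an r was not particular to the pair. Of 369 other tested probes, 22 had r of at least 0.9 with miR-222-3p (5.96%) and 19 with miR-221-3p (5.15%). The 5 probes most like each 3p arm, named below, had a higher r with it than the other 3p arm had. The arms of the miR-221 hairpin gave r = 0.08 and a rank correlation of 0.20 (exact permutation p = 0.842 and p = 0.714), and for miR-222-3p and miR-221-5p they were 0.34 and 0.20 (exact permutation p = 0.521 and p = 0.714). Without the 2 arrays farthest from the median of the 3p arm, these were 0.57 for the miR-221 arms and 0.11 for miR-222-3p and miR-221-5p. Within a line only 3 arrays remain, too few for a value.

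The ratio of the miR-221 arms within an array varied from array to array. The log2 difference of miR-221-3p minus miR-221-5p was -1.78, 1.19 and -0.60 in the knockdown and -0.93, -1.51 and 0.67 in the control at 24, 48 and 72 h. These are differences between probes, whose levels cannot be set against each other, so only their change between arrays is read. The control value of 48 h uses a miR-221-3p probe under 50 and does not resolve the ratio. The knockdown values of 24 and 72 h rest on miR-221-3p means of 53.8 and 65.8, near that minimum. The spots there ran from 34 to 86 and from 10 to 124, so these ratios are poorly resolved too. For miR-222-3p minus miR-221-3p the values were 0.55, 0.42 and -0.13 in the knockdown and 1.10, 0.18 and 2.06 in the control. On the control array of 48 h both probes were under 50, and on the knockdown array of 72 h miR-222-3p was, so the lines are not compared in these ratios.

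**Figure D4:**
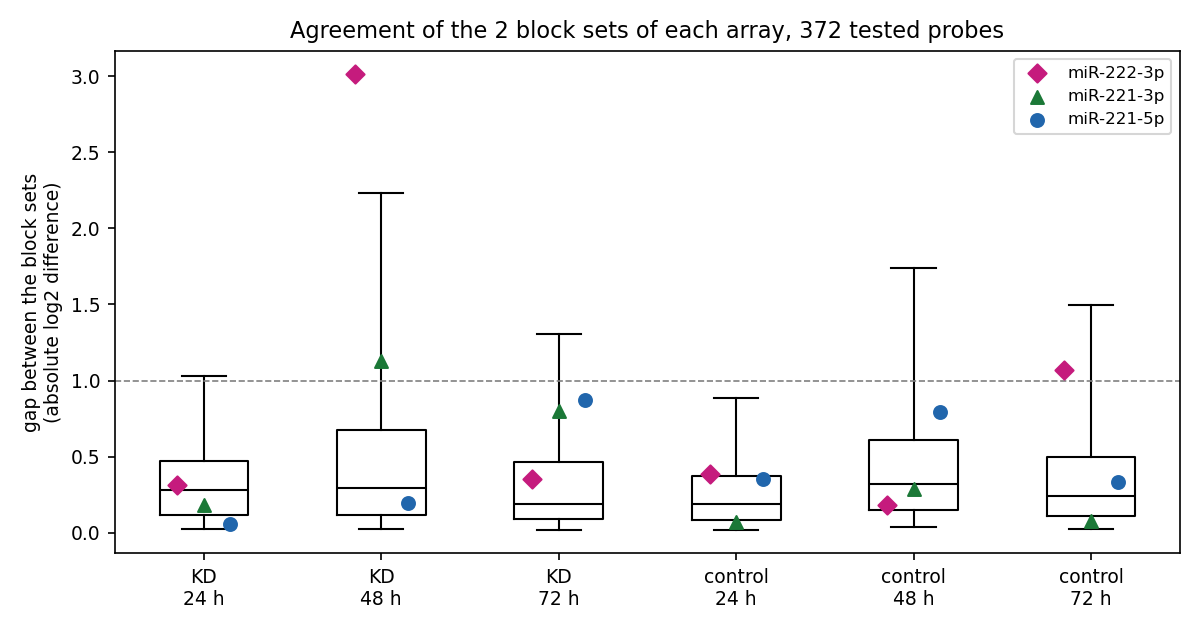
Absolute log2 gap between the first and second block set (vertical axis) on each array over the 372 tested probes; boxes give the quartiles and whiskers the percentiles 5 and 95, with the 3 measured members as symbols and the dashed line at 2-fold. miR-222-3p lies above the whisker on the knockdown array of 48 h at 3.02 and above 2-fold on the control array of 72 h, and miR-221-5p is under the dashed line on every array.

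Among the other tested probes, miR-222-3p was most like miR-106b-5p, a repressor of Cdkn1a, with r = 0.998 over the 6 arrays. Next came miR-34b-5p and miR-24-2-5p (r = 0.99 each), then miR-34a-5p and miR-5117-3p (r = 0.98 each). miR-34a-5p and miR-34b-5p are known to be induced by p53. At 24, 48 and 72 h miR-106b-5p differed between the lines by -0.97, 2.36 and -3.60, and miR-34a-5p by -0.98, 1.31 and -2.82. Of 369 other probes, 22 had r of at least 0.9 with miR-222-3p, with a median r of 0.18 over all of them. On the knockdown array of 48 h the block sets of miR-106b-5p lay 17.9-fold apart, those of miR-34a-5p 8.27-fold, miR-34b-5p 3.55-fold, miR-24-2-5p 2.45-fold and miR-5117-3p 1.01-fold. The first block set was the brighter one in the first 4 of them, as for miR-222-3p, and the part of this in the likeness was not tested.

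The probes most like miR-221-3p were miR-34c-5p and miR-143-3p (r = 0.98 each), followed by miR-106b-5p, miR-3096a-3p and miR-101a-3p (r = 0.96 each). miR-101a-3p, a repressor of the methyltransferase gene Ezh2, differed by -1.22, 2.70 and -1.65 at 24, 48 and 72 h with block sets 1.05-fold apart on the knockdown array of 48 h. For miR-3096a-3p the differences were -2.30, 4.28 and -4.39 with a 4.26-fold gap. miR-221-5p had other neighbours, miR-3098-3p (r = 0.98), miR-675-5p from the imprinted H19 transcript (r = 0.97) and miR-137-5p (r = 0.93), then miR-1949 (r = 0.89) and miR-874-3p (r = 0.88). All 5 of these reached 50 on every one of the 6 arrays. These correlations describe 6 arrays that the probes share, and the 3p lists hold 1 probe in common.

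**Figure D5:**
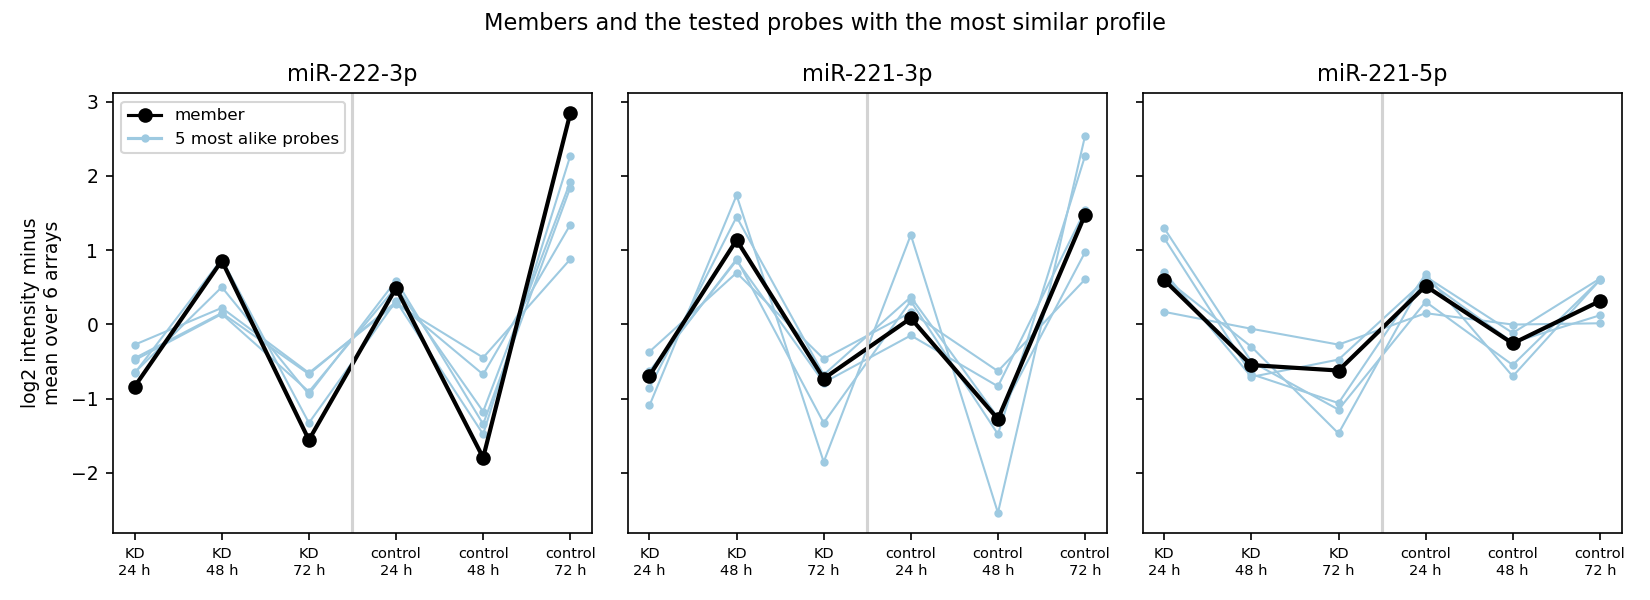
Log2 intensity minus the mean over the 6 arrays (vertical axis) for each measured member (black) and the 5 tested probes most like it (blue) on the 3 knockdown (KD) and the 3 control arrays. Both 3p arms and their neighbours peak in the knockdown at 48 h and in the control at 72 h, while miR-221-5p and its neighbours peak at 24 h in the knockdown. In the control these are also highest at 24 h, some by little, except miR-137-5p, at 9.59 at 24 h and 9.89 at 72 h.

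Other miRNAs reported to repress cell cycle inhibitors or Kit were set beside the members. Of 13 reported repressors of Cdkn1a, Cdkn1b or Cdkn1c, 8 were tested and 0 passed in either direction, as for all 372 tested probes. Their median difference was -0.41, with medians of -0.83, 1.45 and -1.75 at 24, 48 and 72 h, beside -0.12, 0.19 and -0.39 over all tested probes. miR-106b-5p had a mean difference of -0.74 and miR-24-3p one of -0.68, while miR-25-3p had 0.53 and miR-17-5p 0.49. Of 7 reported Kit repressors, 5 were tested and 0 passed, with a median of -0.53 and medians of -0.53, 1.31 and -1.07 at the 3 times. Those with the lowest mean differences were miR-193b-3p at -1.01, which had 0.87, -2.93 and -0.96 at the 3 times, and miR-34a-5p at -0.83, and only miR-218-5p lay above 0, at 0.07.

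On the X chromosome, which holds Mir221 and Mir222, 32 other tested probes had all their genes, by RefSeq names that matched 294 of the 372 tested probes. None passed, and their median was 0.11, with 0.20, 0.32 and 0.14 at the 3 times. The ends of that list were miR-3473a at 0.82, miR-871-3p at 0.70, miR-18b-3p at -0.51 and miR-361-3p at -0.67.

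Markers of cell types were read beside these values. The endothelial miR-126, whose cells are rich in miR-221 and miR-222, was under 50 in both arms on all 6 arrays. Of 9 epithelial markers 2 were tested, miR-200c-3p and miR-375-3p. The intestinal miR-192-5p, miR-194-5p and miR-215-5p and the other miR-200 family members listed were under 50 on every array, so 7 of these 9 markers of the labelled tissue gave no level. The summed intensity of the 9 was 144 to 381 in the knockdown and 264 to 553 in the control. All 5 fibroblast and smooth muscle markers were tested, with summed intensities of 1438 to 5245 in the knockdown and 3324 to 5136 in the control, and their median differences were -0.48, 0.23 and -0.67 at 24, 48 and 72 h, signs that the median of all tested probes shared. At 48 h miR-199a-5p (-1.23) and miR-214-3p (-0.52) of this list lay below 0, and miR-214-3p was at 0.69 at 72 h. The medians were 0.21, -0.52 and 0.12 for the epithelial and -0.65, -0.11 and 0.21 for the blood cell markers tested. The part of these markers in the differences of the 3p arms was not tested. Of 6 blood cell markers 3 were tested, with sums of 1058 to 2554 in the knockdown and 1249 to 1998 in the control, and miR-223-3p, miR-144-3p and miR-451a were under 50 on all arrays.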

How the data were processed

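Per the labels' protocols, RNA was labelled with Hy3 by the authors for single-colour miRNA arrays with locked nucleic acid probes. For every spot the deposited intensity values are the foreground and the foreground less background, per the file headers, with no scaling between arrays. They also deposited a ratio per probe. In the files it equalled the median background-subtracted intensity divided by a number specific to each array (313 to 397). This held for 100% of filled values at a relative tolerance of 1e-06, with no centring. How that number was chosen, the scanner software and a genome build are not given in the sources used here.

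Normexp background correction (offset 50) used limma 3.58.1 and R 4.3.3. Spots were averaged on the log2 scale and 3439 mouse, viral and unnamed probes were quantile normalised. limma fitted line and time point with moderated variances, trend and robust estimation over 372 probes, with Benjamini-Hochberg adjustment at 0.05. Slopes used time in days. A side under 50 gives a bound against the higher of its own value and the lowest value at or above 50 on that array. The other side is taken as read. Where the own value of the dim side is the higher, the fold is the measured one and no bound. The fits for the line, the slope and the term for 48 h were tested on simulated data with independent arrays and added effects. False calls were counted there for the line fit only, so the test does not cover false calls of the term for 48 h. The difference of slopes and the fits with arrays left out were not tested in this way. The number of arrays limits the precision.

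The members, lists and tests were chosen with earlier results of these data known. Named besides the members were the 5 tested probes most like each, seed mates, and up to 2 list members in each direction. The result of 1 further list is not reported here. The block set values and the term for 48 h came later, once values were known. The time point, given by the labels, is the block. Between the lines, deviations from the line means at the same time correlated at -0.30, -0.52 and -0.34 at 24, 48 and 72 h. Arrays of the same time thus tended to deviate in opposite directions, which widens the spread that the fit with the block measures. Without the block 0 probes passed as well.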

Additional observations from a re-analysis of the deposited data

Results flagged for a closer look

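For miR-222-3p the difference between the lines at 48 h stood apart from that at 24 and 72 h by 5.51 on the log2 scale (limma adjusted p = 0.0065), with differences of -1.33, 2.65 and -4.40 at 24, 48 and 72 h. It was singled out because the same contrast had opposite signs at different times and the test of that difference passed. The term was chosen after the signs were seen and the fit has 1 residual degree of freedom. In the second block set alone the value was 4.67 and did not pass (limma adjusted p = 0.424).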

How the results depend on the processing

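Of 261 values recomputed under alternatives, 229 kept their direction and side of the threshold or moved by less than the spread. For the lines over all times, 0 probes passed in all alternatives except without the 48 h arrays, with 3 on all spots and 5 in the first block set. Leaving out time points or single arrays on all spots gave 0 to 3 calls, -2.86 to 0.66 for miR-222-3p, -1.49 to 0.82 for miR-221-3p and -0.78 to -0.11 for miR-221-5p. With the 48 h arrays left out and 1 block set used, the ends were 5 calls, -3.24 for miR-222-3p and -1.64 for miR-221-3p. Without the 48 h arrays, the time of opposite sign, miR-222-3p passed at -2.86 and, in the first block set, -2.52. With no replicate block, which leaves the difference at -1.02, it turned to 0.14 without the control array of 72 h, and with the block to 0.66 without the arrays of 72 h. miR-221-3p turned to 0.23 under median scaling, 0.056 on the authors' ratios, 0.10 without the arrays of 24 h and 0.82 without those of 72 h, and was -1.49 without those of 48 h. With no replicate block it was 0.11, 0.13 and 0.50 without the knockdown array of 24 h, that of 72 h and the control array of 72 h. The difference of slopes of miR-221-5p turned to 0.29 under median scaling. No other call changed without the replicate block.

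At 1.5-fold in place of 2-fold, 132, 271 and 310 probes differed at 24, 48 and 72 h. miR-221-3p at 24 h was -0.58 and -0.96 in the block sets. At 72 h median scaling gave -3.32 for miR-222-3p, -1.05 for miR-221-3p and 0.37 for miR-221-5p, and the block sets gave -3.66 and -5.16 for miR-222-3p. Under median scaling the correlation of the 3p arms was 0.88 and no longer passed, and those with miR-221-5p were -0.21 for miR-222-3p and -0.22 for miR-221-3p, the second of these also at -0.034 in the second block set. The 48 h term passed for 26 probes in the first block set and 0 in the second, where it was 4.67 for miR-222-3p and -0.27 for miR-221-5p. The cause of these changes was not tested. Probes near the minimum of 50 carry little signal over background, which limits the 3p arms on the control array of 48 h and the knockdown array of 72 h. It also limits miR-221-3p on the knockdown array of 24 h, where the mean was 53.8 and the median of the spots 47.5.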
